A study of Mus musculus with 6 samples.

Results

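Peritoneal macrophages from wildtype (WT) and FOXO3 knockout (KO) mice were compared by RNA-seq. In both of the libraries that had lost Foxo3, 20 genes were lower than in any other library, by 1.5-fold or more. They were selected on their measured expression. A gene was taken when its lowest CPM (counts scaled to a library total of 1000000) over WT 1, 2 and 3 and the library labelled FOXO3 KO 2 was at least 1, and at least 1.5 times the higher CPM of FOXO3 KO 1 and 3. Foxo3 itself was left out. Of the 54648 gene symbols listed, 12128 besides Foxo3 had at least 1 CPM in those 4 libraries, and 20 of these, or 0.165%, met the rule. Every value of these genes below is therefore a description, since the same values chose them, and no test is given for them.

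The series holds 3 WT and 3 FOXO3 KO libraries of total RNA from intraperitoneal macrophages of C57BL/6 mice, 6 to 8 weeks old. Both genotypes ate standard chow, and the study used littermates of both sexes that were homozygous for either allele. All mice had received thioglycollate in the abdomen, an irritant that draws monocytes into the cavity, so every library came from elicited cells. The knockout is of the whole animal, so cells other than macrophages also lack the gene. The labels number the libraries but do not say whether each came from 1 mouse, so that p-values below measure the spread between these libraries.

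FOXO3 is a forkhead transcription factor that binds DNA and mostly raises the transcription of its targets. Insulin and growth factors act through PI3K and AKT, which phosphorylate FOXO3 and hold it outside the nucleus, and its targets fall when that signal is on. Its textbook targets include inhibitors of the cell cycle, enzymes against oxidative stress, and genes of autophagy and mitochondrial quality control. In macrophages and other immune cells it is known as a brake on inflammatory gene expression.

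Foxo3 (chr10:42181841-42276755, minus strand, GRCm38) was measured at 116, 99.8 and 80.2 CPM in WT 1, 2 and 3. It was at 4.57 CPM in FOXO3 KO 1 and 4.42 in FOXO3 KO 3, but at 101 CPM in FOXO3 KO 2. The library labelled FOXO3 KO 2 thus held Foxo3 at the WT level and goes against its label, which is why the rule sets it with the WT libraries. In edgeR's quasi-likelihood test the log2 fold change of Foxo3 (FOXO3 KO against WT) was -1.40 (SE 1.22, FDR = 0.859) with the 6 libraries as labelled. Without FOXO3 KO 2 it was -4.46 (SE 0.29, FDR = 0.105).

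Library totals were between 28083572 and 36424331 counts. The summed level of 12 macrophage markers, such as Adgre1 and Csf1r, was between 15674 and 18304 CPM, so all libraries carried the labelled cell type. Lyz2 alone was at 8494 to 10690 CPM, and the sum hides differences between markers. WT 3 had the least Cd68, 576 CPM against 1020 to 1377 in the others. It had the most Adgre1, 1009 against 713 to 812, and its other markers lay on either side. WT 3 stood apart by its summed B cell markers, 3565 CPM against 124 to 680 in the others, and its mast cell markers, 911 against 104 to 314. FOXO3 KO 2 had the most fibroblast marker RNA, 470 CPM against 44.8 to 175. The low pair moved together in neutrophil markers, which summed to 453 and 398 CPM in FOXO3 KO 1 and 3 and to between 138 and 189 in the other 4. Of the 12 markers 5 were above all other libraries, and Ly6g, Mpo, Elane, Ngp and Camp were at 0 in at least 1 library. S100a9 alone was at 159 and 120 CPM in the low pair against 0.276 to 6.77, while Retnlg and Mmp8 overlapped. FOXO3 KO 1 and 3 also moved together in red blood cell markers, at 114 and 188 CPM against 9.01 to 29.6, with 5 of 5 markers above. None of the 20 genes was on any of these marker lists. The rule took 0.165% of genes, so lists this short were unlikely to hold any, and this absence is no test. The part of these other cells in the low values was not tested, and in bulk RNA fewer cells of a type and less RNA per cell cannot be told apart.

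Xist, the RNA of the inactive X chromosome, was at 955 CPM in WT 3 and 1163 in FOXO3 KO 3 and at no more than 0.172 CPM in the other 4 libraries. FOXO3 KO 1 and 3 therefore held 1 library of each kind. WT 3 also held Ddx3y, a Y-linked gene, at 26.0 CPM, against 2.44 in FOXO3 KO 3 and 92.3 to 120 in the others, so that its RNA carried both marks.

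**Figure D1:**
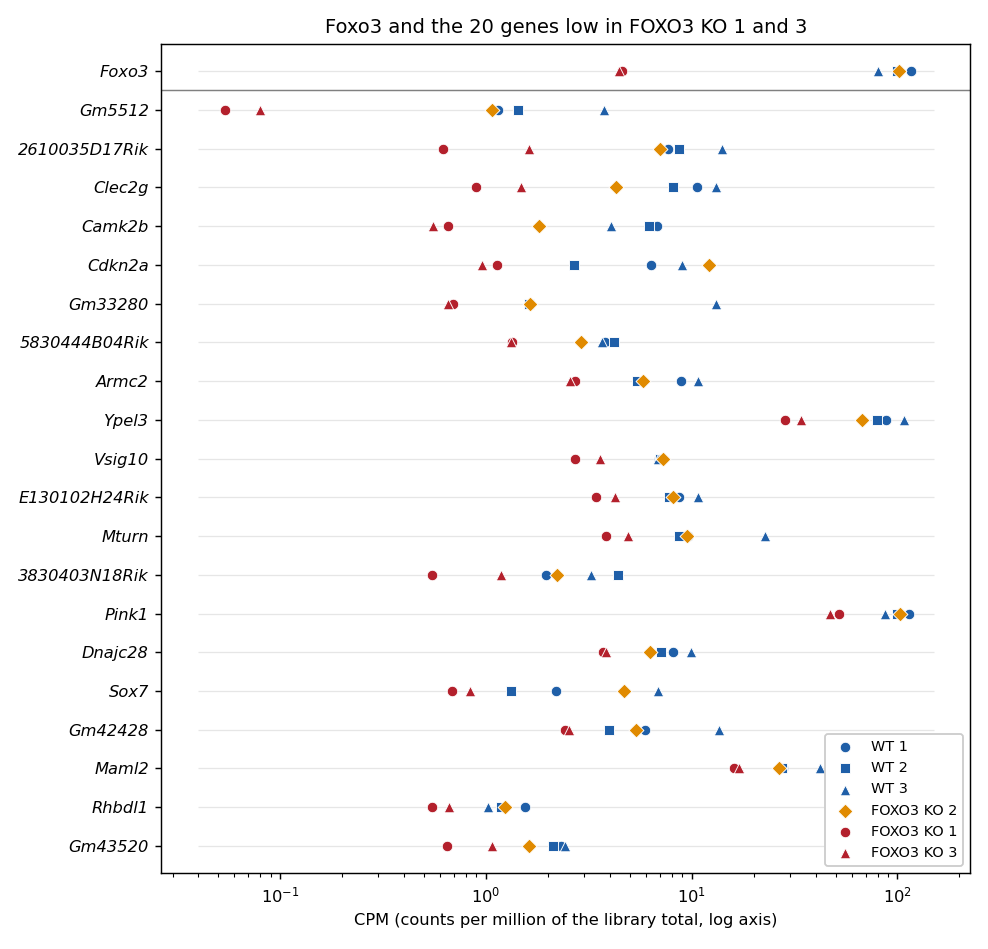
CPM of Foxo3 (top row) and of the 20 selected genes in each of the 6 libraries, on a log axis, with 1 marker per library (blue for WT, orange for FOXO3 KO 2, red for FOXO3 KO 1 and 3). In every row both red markers lie to the left of the other 4, which the selection fixes, while the spread of the blue markers differs from gene to gene and the orange marker lies below, among or above them.

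The ratio used by the rule, the lowest CPM of the 4 high libraries over the highest of the low pair, ran from 1.51 to 13.4 with a median of 1.87. It was 2 or more for 8 genes. The mean of the 3 WT libraries was 1.97 to 31.4 times that of FOXO3 KO 1 and 3, with a median of 3.15. Ratios are given with an exact 95% interval in parentheses, which covers counting error only, takes PCR copies for molecules and makes no allowance for the selection, so it serves as a measure of depth and not as a test. In the annotation (GENCODE M21) 13 of the genes are protein-coding, 4 are long intergenic RNAs and the other 3 are a processed transcript, a transcribed pseudogene and an unclassified transcript.

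Clec2g, Camk2b and Cdkn2a had the largest ratios among the protein-coding genes. Clec2g (chr6:128934381-128984707) encodes a C-type lectin-related membrane protein of the natural killer gene complex. It was at 10.7, 8.12 and 13.2 CPM in WT 1, 2 and 3, at 0.895 and 1.48 in FOXO3 KO 1 and 3 and at 4.31 in FOXO3 KO 2. The low pair held 11.1% of the WT mean, and FOXO3 KO 2 lay between them and the WT libraries. Its gene body overlaps Gm15987 on the other strand, and a library that does not keep the strand cannot separate their reads. Gm15987 did not share the order, at 12.4 and 42.0 CPM in the low pair against 10.7 to 84.6 in the other 4.

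Camk2b (chr11:5969644-6066362) encodes the beta subunit of calcium/calmodulin-dependent protein kinase II, an enzyme best known from neurons. It was at 6.75, 6.21 and 4.05 CPM in the WT libraries and at 0.653 and 0.556 in FOXO3 KO 1 and 3. FOXO3 KO 2 was again in between, at 1.82 CPM from 51 counts. The other subunits did not share the pattern: Camk2d, Camk2g and Camk2a each overlapped between the low pair and the other libraries, with Camk2d at 86.9 and 106 CPM in FOXO3 KO 1 and 3 and 82.4 to 213 in the others. These relatives and those named below were looked up after the 20 genes were known.

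Cdkn2a (chr4:89274471-89294653) encodes p16INK4A and p19ARF, inhibitors of the cell cycle that act through the retinoblastoma protein and p53. It was at 6.31, 2.67 and 9.01 CPM in WT and at 1.13 and 0.957 in FOXO3 KO 1 and 3. FOXO3 KO 2 had the most of all, 12.2 CPM, so the library that kept Foxo3 was above every WT library here. Cdkn2b, its neighbour on the chromosome and a cell cycle inhibitor of the same family, was at 1.35, 0.924 and 6.22 CPM in WT, 0.619 and 0.957 in FOXO3 KO 1 and 3 and 1.89 in FOXO3 KO 2. The low pair overlapped the other libraries at this scale and lay below all of them by TMM or DESeq2 size factors. Cdkn2c and Cdkn2d overlapped under each scaling.

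Ypel3, Pink1 and Maml2 rest on the most counts, between 466 and 4135 per library, and so have the narrowest intervals. Ypel3 (chr7:126776955-126780514) encodes a small zinc-binding protein of the Yippee family that restrains proliferation. It was at 88.5, 79.2 and 108 CPM in WT, a mean of 91.8 ± 14.5 (SD, n = 3), at 28.4 and 33.8 in FOXO3 KO 1 and 3, and at 67.3 in FOXO3 KO 2. Its ratio was 1.99 (1.85 to 2.15). A second member of the family stood just outside the rule: Ypel2 was at 54.5, 49.3 and 48.4 CPM in WT, 33.7 and 31.9 in the low pair and 49.2 in FOXO3 KO 2, a ratio of 1.44. Ypel5 overlapped, at 130 and 119 CPM against 93.7 to 124.

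Pink1 (chr4:138313409-138326307) encodes the mitochondrial kinase that marks damaged mitochondria for removal, and it is a known FOXO3 target. It was at 114, 99.4 and 86.5 CPM in WT, 52.2 and 46.8 in FOXO3 KO 1 and 3, and 103 in FOXO3 KO 2. FOXO3 KO 2 lay within the WT range and the low pair held 49.6% of the WT mean. The ratio was 1.66 (1.56 to 1.76) at this scale, but 1.46 with TMM-scaled and 1.42 with DESeq2-scaled libraries, under the threshold of the rule.

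Maml2 (chr9:13297957-13709388) encodes a Mastermind-like coactivator of Notch. It was at 27.8, 27.4 and 42.1 CPM in WT, 16.0 and 17.0 in FOXO3 KO 1 and 3, and 26.5 in FOXO3 KO 2, a ratio of 1.56 (1.40 to 1.75). It was among the 3 genes nearest to the threshold from inside. Its relatives Maml1 and Maml3 overlapped.

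The promoters of the 20 genes were searched for the FoxO motif, GTAAACA or its reverse complement TGTTTAC, in the RefSeq windows from 250 bases before to 50 after each gene start (GRCm38.p6). A window was found for 14 of the 20, and 3 of these 14 (21.4%) held the motif, against 4.05% of 27025 genes and 3.22% of the genes with at least 1 CPM in the high libraries. The 3 windows are printed around the match, in capitals, because they are the only ones that carry it. Each is read 5′ to 3′ on the strand of the gene, with E130102H24Rik at chr4:101356205-101356231 (minus strand, match at base 28 from the start), Ypel3 at chr7:126776978-126777004 (plus strand, base 26 from the start) and Maml2 at chr9:13297708-13297764 (plus strand, 225 bases before the start).
E130102H24Rik: gccgggatgtTGTTTACatgacggatc
Ypel3: tggtctcggtGTAAACAagtcgaggcg
Maml2: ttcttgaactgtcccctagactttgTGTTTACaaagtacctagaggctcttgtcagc

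The shorter form TAAACA or TGTTTA, which lies inside the longer one, occurred in the same 3 genes (21.4%) and in 15.1% of all genes. The form CAAAACA or TGTTTTG of insulin response elements occurred in 0 of the 14 and in 7.20% of all genes. Among genes with at least 1 CPM in the high libraries, the shares of these 2 forms were 10.5% and 5.28%. The window of Pink1 held none of these letters in these orders. Of 33 FoxO targets with a window, 5 held the 7-base motif, among them Sesn1 and Txnip. The starts used here are those of RefSeq. In GENCODE M21 the minus-strand gene E130102H24Rik starts at chr4:101356735, so by that annotation its printed match lies inside the gene. A match of letters is a description of the sequence and not a binding site.

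Vsig10 and Dnajc28 belong to the 12 genes that the study followed by qPCR, a set chosen from the sequencing. The study reports significant qPCR results for both, and does not state whether the sequenced RNA was used. The study's signature of FOXO3-deficient macrophages lists both as lower, along with Clec2g, Camk2b, Cdkn2a, Ypel3, Armc2 and Maml2. That signature also came from this experiment, with 3 samples per group by the study's account. The fold decreases it prints for these genes lie close to the WT mean over the mean of FOXO3 KO 1 and 3. That ratio was 9.38 for Camk2b, 8.97 for Clec2g and 2.23 for Dnajc28. The signature is therefore not independent of the rule. Vsig10 (chr5:117319083-117355005) encodes a membrane protein with immunoglobulin domains. It had the tightest WT libraries of all 20 genes, 6.97, 7.03 and 6.84 CPM (6.95 ± 0.095, SD, n = 3), against 2.72 and 3.58 in FOXO3 KO 1 and 3 and 7.24 in FOXO3 KO 2. Dnajc28 (chr16:91614254-91619026) encodes a protein with the J domain of Hsp40 co-chaperones. It was at 8.15, 7.13 and 9.96 CPM in WT, 3.71 and 3.83 in the low pair, and 6.27 in FOXO3 KO 2. It overlaps Gm15964 on the other strand, whose order was not the same, with 5.33 and 5.43 CPM in the low pair and 1.53 to 4.95 in the other 4.

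Armc2 (chr10:41914990-42018442) encodes an armadillo repeat protein needed for the sperm flagellum and was the only one of the 20 on the chromosome of Foxo3, 163399 bases away. It was at 8.86, 5.45 and 10.8 CPM in WT, 2.70 and 2.58 in FOXO3 KO 1 and 3, and 5.77 in FOXO3 KO 2. The low pair differed little from each other, while the WT libraries ranged over 1.98-fold.

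Mturn, the maturin gene known from neural differentiation, was at 9.64, 8.65 and 22.7 CPM in WT, 3.82 and 4.88 in the low pair and 9.54 in FOXO3 KO 2. Sox7, a transcription factor of endothelial cells, was at 2.20, 1.32 and 6.90 CPM in WT, 0.687 and 0.834 in the low pair and 4.66 in FOXO3 KO 2. In both genes WT 3 was far above the other WT libraries. The Sox7 ratio was 1.58 (0.948 to 2.68), from as few as 20 counts in the low pair. The X-linked gene 3830403N18Rik was at 1.97, 4.38 and 3.23 CPM in WT, 0.550 and 1.18 in the low pair and 2.22 in FOXO3 KO 2. Rhbdl1, of the rhomboid family of membrane proteases, ranged from 1.02 to 1.56 CPM in the 4 high libraries and was at 0.547 and 0.661 in the low pair, a ratio of 1.55 (0.876 to 2.84). Gm20683 overlaps it on the same strand, so the counting decided which of these 2 genes received their shared reads. Gm20683 did not share the order, at 2.39 and 2.43 CPM in the low pair and 1.14 to 2.53 in the other 4. Whether the low Rhbdl1 values come from how the reads were divided was not tested.

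Among the noncoding genes Gm5512 had the largest ratio of all 20, 13.4 (3.59 to 59.1). It is a transcribed pseudogene on chromosome 19 with 42, 44 and 122 counts in WT, 2 and 3 in FOXO3 KO 1 and 3, and 30 in FOXO3 KO 2. A pseudogene can share reads with its parent gene, so these counts depend on how reads were assigned. The long intergenic RNA 2610035D17Rik was next, at 7.64, 8.68 and 14.1 CPM in WT, 0.621 and 1.62 in the low pair and 7.01 in FOXO3 KO 2, a ratio of 4.32 (3.15 to 5.92). Both were lowest in FOXO3 KO 1 and highest in WT 3.

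Gm33280 owed its WT mean to 1 library, with 1.63, 1.61 and 13.2 CPM in WT 1, 2 and 3 against 0.691 and 0.658 in the low pair and 1.64 in FOXO3 KO 2. Gm42428 was likewise highest in WT 3, at 13.6 CPM against 5.96 and 3.97 in the other WT libraries, 2.41 and 2.53 in the low pair and 5.36 in FOXO3 KO 2. E130102H24Rik, whose match in the RefSeq window is printed above, was more even, at 8.70, 7.76 and 10.8 CPM in WT, 3.44 and 4.23 in the low pair and 8.12 in FOXO3 KO 2. The processed transcript 5830444B04Rik, whose reads may be shared with Cfap74 on the other strand, was at 3.78, 4.19 and 3.65 CPM in WT, 1.34 and 1.33 in the low pair and 2.89 in FOXO3 KO 2. Gm43520, an unclassified transcript, ranged from 1.63 to 2.41 CPM in the high libraries and was at 0.649 and 1.08 in the low pair. Its ratio was 1.51 (0.955 to 2.42). Of the 20 genes 65% were protein-coding and 20% long intergenic RNAs, against 91.8% and 1.79% of the 12128 genes with at least 1 CPM in the high libraries. These shares were not matched for expression level.

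**Figure D2:**
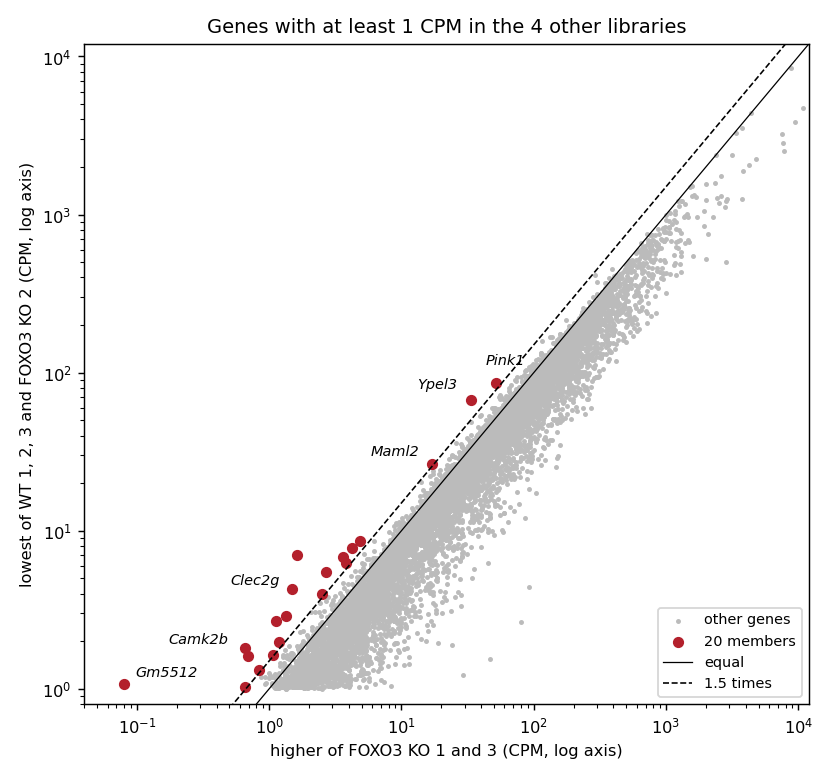
Each of the 12128 genes with at least 1 CPM in the 4 high libraries is placed by the higher CPM of FOXO3 KO 1 and 3 (x axis) and the lowest CPM of the other 4 (y axis), both on log axes, with the solid line at equal values and the dashed line at the ratio of 1.5. The 20 members (red) lie above the dashed line, several of them close to it, and Gm5512 lies far to the left.

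The rule set a threshold inside a continuous spread. Just inside lay Gm43520, Rhbdl1 and Maml2, at ratios of 1.51, 1.55 and 1.56. Just outside lay Gm1821 at 1.48, 4930481A15Rik at 1.44 and Ypel2 at 1.44. A further 10 genes had the ratio but a lowest high library between 0.5 and 1 CPM, and genes under 0.5 CPM were not counted. They were led by Slc25a27, whose lowest high library was at 0.989 CPM. With TMM-scaled or DESeq2-scaled libraries the rule also took 20 genes, 18 of them shared, with Pink1 and Rhbdl1 lost and 4930481A15Rik and Slc25a27 gained. The rule applied in reverse, with FOXO3 KO 1 and 3 high, took 55 of 12577 genes, or 0.437%, among them the neutrophil genes S100a8, S100a9 and Cxcr2 and all 5 red blood cell markers.

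The count of 20 rested on each library to a different degree. Without FOXO3 KO 3 the rule took 293 genes, and without FOXO3 KO 1 it took 42. It took 41 without WT 2, 35 without WT 3, 31 without FOXO3 KO 2 and 24 without WT 1. All 20 genes remained in each of these, since leaving a library out can only relax the rule. Over the 13251 genes with a mean of at least 1 CPM, FOXO3 KO 1 and 3 were both below the other 4 libraries for 583 (4.4%) and both above them for 1077 (8.13%). With TMM scaling these shares were 6.42% and 6.35%.

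FOXO3 KO 2 lay below the 3 WT libraries for 9 of the 20 genes, within them for 9 and above them for 2, Cdkn2a and Vsig10. Over all genes with at least 1 CPM in the high libraries these shares were 17.8% below, 67.9% within and 14.3% above. So for 9 genes, Clec2g and Camk2b among them, the library that kept Foxo3 sat between the WT libraries and the low pair. The rule used the values of FOXO3 KO 2 and the WT libraries, so the shares of the 20 depend on the selection and are no test. WT 3 was the highest WT library for 14 of the 20, or 70%, against 55.7% over all genes, and WT levels differed 2-fold or more for 7 of the 20. The part of the other cells in WT 3 in these values was not tested.

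**Figure D3:**
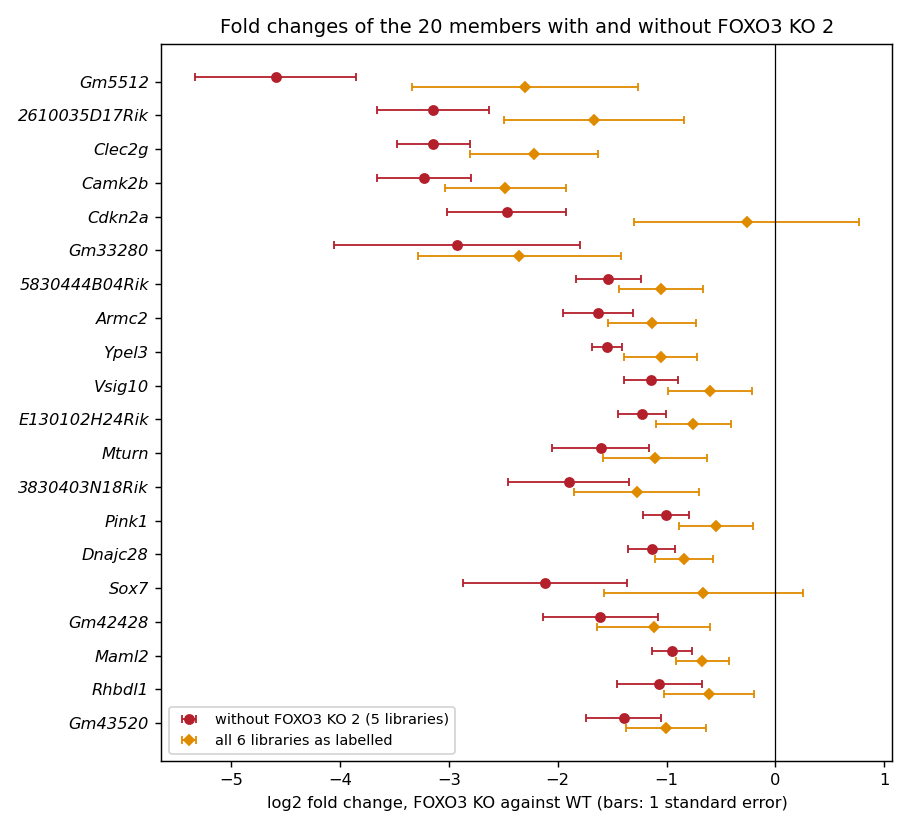
Log2 fold changes of FOXO3 KO against WT for the 20 genes from edgeR, with bars of 1 standard error, from the 6 libraries as labelled (orange diamonds) and without FOXO3 KO 2 (red circles). Each red circle lies to the left of its orange diamond, which the selection fixes, while the size of the shift differs between genes, with Cdkn2a at -0.26 and -2.47.

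The size of these differences was measured with FOXO3 KO 2 among the knockouts, as labelled, and without it. The median log2 fold change of the 20 genes was -1.05 (range -2.48 to -0.26) with the 6 libraries as labelled and -1.61 (range -4.59 to -0.95) without FOXO3 KO 2, and the larger size of all 20 in the second fit follows from the selection, which set FOXO3 KO 2 above the low pair. Over all genes tested the median log2 fold change was -0.007 with the 6 libraries (15608 genes) and -0.016 without FOXO3 KO 2 (16217 genes). For Ypel3 the fold change went from -1.05 (SE 0.34) to -1.55 (SE 0.13), and for Clec2g from -2.22 (SE 0.59) to -3.14 (SE 0.33). Pink1 went from -0.55 (SE 0.34) to -1.01 (SE 0.21). For Cdkn2a the fold change was -0.26 (SE 1.04) as labelled, less than its error, and -2.47 (SE 0.55) without FOXO3 KO 2.

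As background, edgeR's quasi-likelihood test called 0 of 15608 genes (0%) at an FDR under 0.05 with 6 libraries. At an unadjusted p under 0.05 it took 257 genes lower (1.65%) and 630 higher (4.04%) in FOXO3 KO, and DESeq2 called 163 of 17968 genes (0.907%) at the same FDR. Without FOXO3 KO 2, edgeR called 0 of 16217 (0%), with 204 lower (1.26%) and 494 higher (3.05%) at the unadjusted threshold, and DESeq2 called 108 of 18871 (0.572%).

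Pink1 was the only one of the 20 on a list of 38 textbook FoxO target genes, and the other targets were therefore set beside it. Of the 36 with a mean of at least 1 CPM, FOXO3 KO 1 and 3 were both below the other libraries for 6 and both above for 3, against the 4.4% and 8.13% of all genes. The selection fixed the place of Pink1 among the 6, and Sesn1, another of them, lies 273417 bases from Foxo3. With TMM or DESeq2 size factors 8 were below, Insr and Pik3ca joining, and 2 above, Bcl6 leaving. The share of all genes below moved as well, to 6.42% with TMM and 5.95% with DESeq2 size factors. The share above became 6.35% and 6.44%. At plain CPM the count of targets below rose to 14 without WT 3, 12 without FOXO3 KO 3 and 10 without FOXO3 KO 1 or WT 2. There the share of all genes below rose too, to 8.51%, 21.6%, 8.02% and 7.62%. At an FDR under 0.05 edgeR and DESeq2 called 0 of the list in either fit. At an unadjusted p under 0.05 edgeR took 2 lower and 1 higher with 6 libraries, beside 1.65% and 4.04% of all genes. Without FOXO3 KO 2 it took 5 lower and 0 higher, beside 1.26% and 3.05% of all genes. Pink1 was among these 5, and its place there is no test, since the selection used the same values.

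The 6 below were 3 inhibitors of the cell cycle, a stress-response gene, an insulin receptor substrate and Pink1. Cdkn1b, which encodes the inhibitor p27, was at 110, 97.1 and 167 CPM in WT, 55.2 and 72.7 in FOXO3 KO 1 and 3 and 89.3 in FOXO3 KO 2. Ccng2, an atypical cyclin that slows the cell cycle, was at 67.8, 59.5 and 76.1 CPM in WT, 45.3 and 48.5 in the low pair and 62.4 in FOXO3 KO 2. Rbl2, the retinoblastoma relative p130, was at 95.2 to 123 CPM in the high libraries and 85.5 and 87.3 in the low pair. These 3 thus kept the order of Pink1 with ratios of 1.23, 1.23 and 1.09, each under the 1.5 of the rule.

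Sesn1, a sestrin that responds to oxidative stress and restrains mTORC1, was at 111 to 157 CPM in the high libraries and 90.5 and 101 in the low pair. Irs2, which couples the insulin receptor to PI3K, was at 34.6 to 47.4 CPM in the high libraries and 28.7 and 25.7 in the low pair. The targets on the other side were Bcl6, a transcriptional repressor, Sod2, the mitochondrial superoxide dismutase, and Klf4, a transcription factor of monocytes. Sod2 was at 73.5 to 94.4 CPM in the other 4 libraries and 95.7 and 101 in FOXO3 KO 1 and 3, and Klf4 at 46.7 to 92.0 and 104 and 97.2. In edgeR's fit without FOXO3 KO 2 the log2 fold change was -0.94 (SE 0.22, FDR = 0.848) for Cdkn1b and -0.52 (SE 0.11, FDR = 0.793) for Ccng2.

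Among the other FoxO genes, Foxo4 was at 35.0, 33.9 and 35.1 CPM in WT, 24.2 and 24.1 in FOXO3 KO 1 and 3 and 29.5 in FOXO3 KO 2. Its log2 fold change without FOXO3 KO 2 was -0.51 (SE 0.13, FDR = 0.867 in edgeR). Foxo1 overlapped, at 25.2 and 40.9 CPM in the low pair and 27.8 to 105 in the others, and Foxo6 was at no more than 0.178 CPM.

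**Figure D4:**
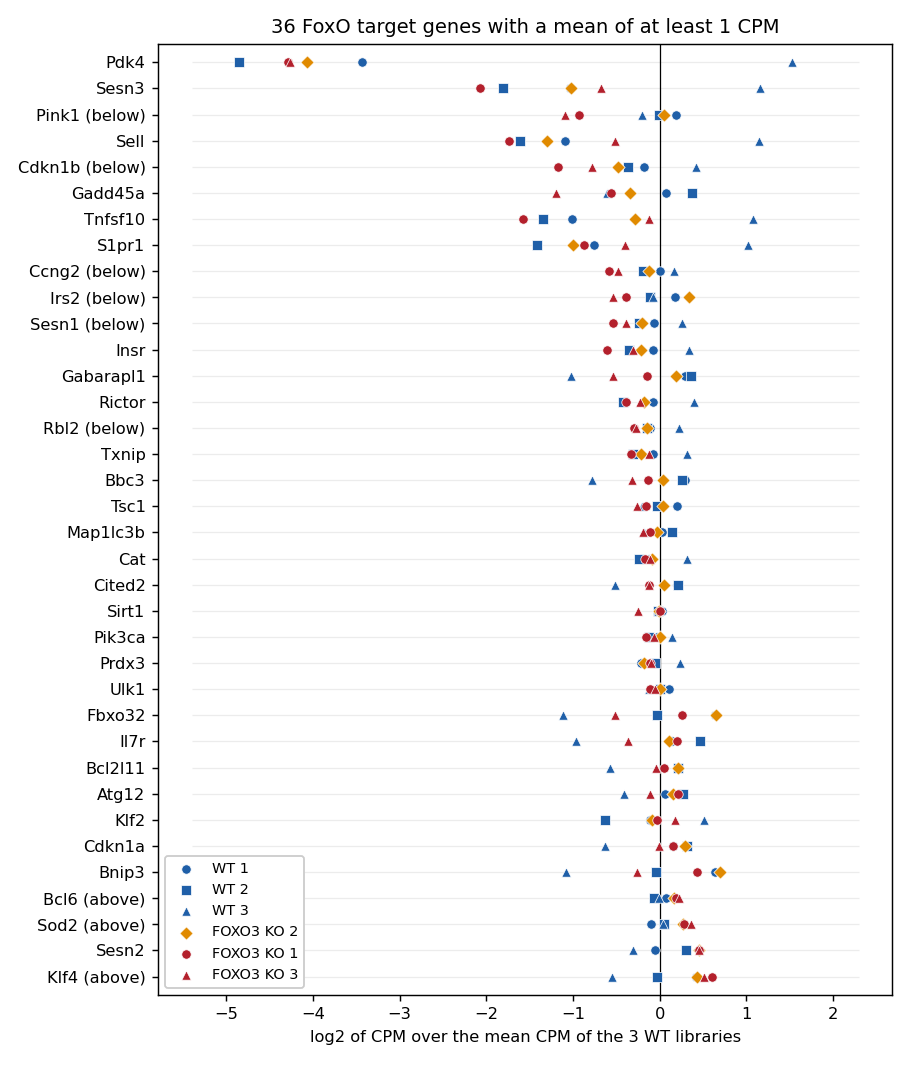
Log2 of CPM over the mean CPM of the 3 WT libraries (x axis) for the 36 FoxO target genes with a mean of at least 1 CPM, sorted by the mean of FOXO3 KO 1 and 3, with 1 marker per library as in the plot of the 20 genes. Rows marked below or above are those in which both red markers lie on 1 side of the other 4; Pink1 and Cdkn1b lie farthest left of them.

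By position, 4 of the 20 genes lay on chromosome 4 (20%, against 5.95% of genes with at least 1 CPM in the high libraries), namely Cdkn2a, 5830444B04Rik, E130102H24Rik and Pink1, and none of them was a neighbour of another. Chromosome 10 held 1, or 5% against 4.89%. Of the 40 expressed genes nearest to the members, 1 on each side, 5 (12.5%) had FOXO3 KO 1 and 3 both below the other libraries and 1 had them above, beside 4.4% and 8.13% of all genes. With TMM scaling 7 were below and 2 above, beside 6.42% and 6.35% of all genes, and with DESeq2 size factors 7 and 3, beside 5.95% and 6.44%. The 5 were Clec2i and BC064078 beside Clec2g, Sesn1 and Gm9855 beside Armc2, and Tbx6 beside Ypel3. BC064078 was at 22.9, 23.3 and 25.5 CPM in WT, 13.4 and 19.3 in the low pair and 23.8 in FOXO3 KO 2. Clec2i was separated least, with 42.3 and 47.3 CPM in the low pair and 48.0 in FOXO3 KO 2.

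Around Armc2 the surroundings of Foxo3 could be followed. Of 16 genes with a mean of at least 1 CPM within 1 Mb of Foxo3, FOXO3 KO 1 and 3 were both below the others for 5 and both above for 2, beside 4.4% and 8.13% of all genes. The 5 were Mical1, Cep57l1, Sesn1, Armc2 and the processed pseudogene Gm9855, all on the side of lower coordinates. The selection fixed the order of Armc2, and Sesn1 and Gm9855 were already counted among the genes nearest to the members. Gm9855, between Armc2 and Foxo3, was at 2.04, 2.37 and 0.599 CPM in WT, 0 and 0.162 in FOXO3 KO 1 and 3 and 1.08 in FOXO3 KO 2. The 2 above, Snx3 and the antisense RNA Gm47815, lay on the other side, and Snx3 overlapped with TMM or DESeq2 size factors. Whether these values go with the chromosome around the altered allele or with the loss of FOXO3 cannot be told apart.

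**Figure D5:**
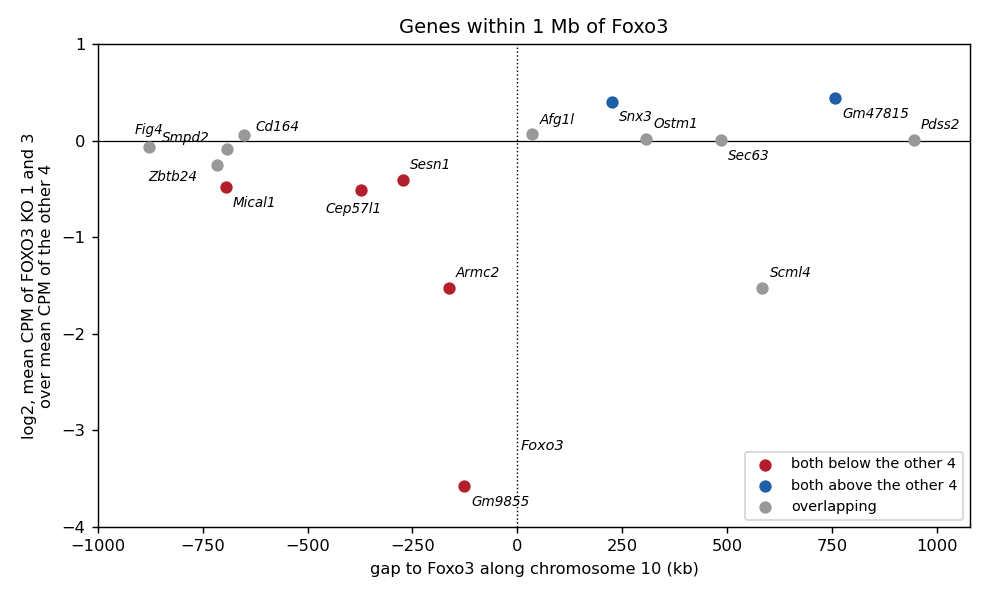
Log2 of the mean CPM of FOXO3 KO 1 and 3 over the mean of the other 4 libraries (y axis) for 16 genes within 1 Mb of Foxo3, placed by their gap to Foxo3 in kb (x axis, dotted line at Foxo3). A small constant was added to both means before the log, which draws genes with little RNA, such as Gm9855, toward equality. The 5 red points, both libraries below the other 4, lie on the left side, with Armc2 at -1.53 and Gm9855 at -3.58.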

How the data were processed

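Total RNA of thioglycollate-elicited peritoneal cells was sequenced as 76 bp paired reads. For 6 libraries, the authors deposited 1 table of estimated counts by gene symbol, with no normalization. The submitters' processing notes name mm10, STAR 2.6.1d, kallisto 0.46.0 and DESeq2, but the tool behind the counts, the annotation and the use of strand were not given in the sources used here. Counts were rounded for tests, 81.4% of them being within 0.01 of whole as deposited. CPM was the count over the column total. Differential expression was tested by edgeR 4.0.16 under R 4.3.3 (filterByExpr, TMM, quasi-likelihood test, Benjamini-Hochberg FDR), and with DESeq2 1.42.0 as an alternative. The SE given with an edgeR fold change was the absolute log2 fold change divided by the square root of the F statistic of the test. All 20 genes passed the filter in both fits. The scripts were tested on simulated data. Coordinates and gene types came from GENCODE M21 on GRCm38, the assembly of mm10, in which 98.8% of symbols matched once. Tables were made in Python 3.11.15.

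Samples were grouped by their labels. The 20 genes, the lists, the marker genes and the tests were chosen with earlier results of these data known. Genes named were Foxo3, the 20 genes, the genes nearest to the fold threshold, and FoxO targets with FOXO3 KO 1 and 3 both below or both above all other libraries; relatives, neighbours and other genes were named after their values were seen. No pair of libraries was a repeat deposit (chi-square per degree of freedom of at least 19.6). Deviations from the group means of same-numbered libraries correlated at 0.26, -0.07 and 0.52, so numbers were not taken to pair libraries. Alternatives covered scaling, filters, fold and level thresholds, tools, a replicate block, a covariate for Xist and each library left out. The colon, human and qPCR data of the study were not analysed here.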

Additional observations from a re-analysis of the deposited data

How the results depend on the processing

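The number of genes meeting the rule was 20, and it was 41 at a fold of 1.3, 8 at a fold of 2, 30 at a floor of 0.5 CPM, 9 at a floor of 5 CPM and 13 with protein-coding genes only. Leaving out each library in turn gave 24 to 293 genes, the highest without FOXO3 KO 3. With filterByExpr, TMM and no covariate, edgeR's quasi-likelihood test called 0 genes higher and 0 lower in both fits. With 6 libraries DESeq2 called 156 higher and 7 lower and edgeR's likelihood ratio test 102 and 7, and other scalings and filters, the replicate block, the Xist covariate and leaving out a library gave 0 and 0. Without FOXO3 KO 2, DESeq2 called 81 higher and 27 lower, the likelihood ratio test 63 and 14, no filter on low counts 9 and 1, and the Xist covariate 11 and 6. The replicate block gave 36 higher and 248 lower in that fit, with 2 FoxO targets, Cdkn1b and Sesn3, called lower, although the numbers do not pair the libraries by their labels and not every library correlated best with its own number. Leaving out 1 more library there gave 0 to 3 genes higher and 0 to 1 lower, the highest without WT 3. Fold changes of the 20 genes kept their direction in 276 of 280 alternatives with 6 libraries, and in all 260 without FOXO3 KO 2. The selection fixes the direction in the 260. It largely sets it in the 280 as well, since 2 of the 3 FOXO3 KO libraries were chosen to lie below all WT libraries. The 280 also include the fit that leaves out FOXO3 KO 2. Neither count is therefore a test. The exceptions among the 280 were Cdkn2a, at 0.06 without WT 3, 0.20 without FOXO3 KO 1 and 0.23 without FOXO3 KO 3, and Sox7, at 0.20 without WT 3. Without FOXO3 KO 2 these were -2.47 and -2.11. For the promoters, CAAAACA or TGTTTTG matched in 0 of the 14 members. The causes were not tested. Depth limits the genes with few counts: 9 of the 20 had fewer than 30 counts in FOXO3 KO 1 or 3.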

Other observations

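Beside the 20 genes, 10 genes had the same order at a ratio of 1.5 or more, with a lowest high library between 0.5 and 1 CPM. Genes under 0.5 CPM were not counted. Slc25a27, a mitochondrial carrier, was at 1.67, 2.08 and 3.11 CPM in WT, 0.0981 and 0.404 in FOXO3 KO 1 and 3 and 0.989 in FOXO3 KO 2. The study's signature lists Slc25a27 as lower as well. Pla2g2d, a secreted phospholipase, was at 0.852, 0.627 and 0.647 CPM in WT, 0.372 and 0.415 in the low pair and 1.29 in FOXO3 KO 2. Both are named after their values were seen, and at these levels the values rest on few counts.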
